A study of Rattus norvegicus with 8 samples.

Results

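The genes described here are 32 genes of B cells, plasma cells and lymphoid follicles, measured in the colon of rats with and without colitis. A member was found where a probe's gene name on the array equalled its symbol. All 32 symbols had a probe, 37 probes in all, among 30367 probes for 26190 genes. By known role they were divided into 20 follicular (mature, non-secreting) B cell genes, 5 plasma cell genes, 3 genes of both cell stages, and 3 follicle-organising chemokines with 1 lymphotoxin gene. A gene was tested if, in 1 group or more, both arrays gave it a signal well above background, and 28 of the 32 genes qualified. Of these, 15 qualified in all 4 groups, 4 in 3 groups, 3 in 2 groups and 6 in 1 group only, so those 6 were tested through the group in which they were bright. The 6 were Cd22, Btk, Cr2, Tnfrsf13c, Mzb1 and Cd79a, and that group was ALA colitis for each of them. Cxcr5, Bank1, Irf4 and Tnfrsf13b did not pass in any group.

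All rats were female Wistar rats aged 14 weeks, and all diets were fed for 8 weeks. The healthy group (6 rats) ate sunflower oil and received no dextran sulfate sodium (DSS), which damages the lining of the colon when drunk. The other 3 groups (10 rats each) were given 5% DSS for 7 days to induce colitis, on the same sunflower oil, whose fatty acids are mainly n-6 (n-6 colitis), on alpha-linolenic acid, a plant n-3 fatty acid (ALA colitis), or on fish oil with its long-chain n-3 fatty acids (fish oil colitis). The design sets both n-3 diets against the n-6 diet in colitis. RNA of 6 rats was pooled for hybridisation, so both healthy arrays carry the same 6 rats. Whether replicate arrays in colitis share rats is not stated, and the p-values therefore measure the spread between arrays, which may be technical.

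B cells recognise antigen through a surface immunoglobulin whose signal is passed on by the Cd79a and Cd79b chains, and mature B cells gather in follicles under the chemokine Cxcl13, while Ccl19 and Ccl21 draw T cells and dendritic cells to the zones beside them. When a B cell becomes an antibody-secreting plasma cell, the factors Prdm1 and Irf4 replace Pax5 and Bcl6, many surface receptors are switched off and the secretory machinery grows. The colon wall holds lymphoid patches and isolated follicles, whereas its plasma cells lie spread through the lamina propria and secrete mainly immunoglobulin A. In RNA of whole colon, fewer cells of a type and less RNA per cell cannot be told apart. The immunoglobulin genes themselves were not analysed here.

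The probes decide what was measured, and 7 of them are shown because the account below turns on their genes. The first 5 belong to genes that were brightest on the same 2 arrays, and the last 2 to follicular B cell genes that were not. Each is 60 bases long, in lower case, written 5′ to 3′ as in the scanner files, with positions on the rat build rn4. The probe for Cd79a lies at chr1:80193363-80193422 on the plus strand, and the others at chr10:95703614-95703673 (Cd79b, minus), chr1:213764136-213764195 (Ms4a1, minus), chr20:13116499-13116558 (Vpreb3, minus), chr20:3666709-3666768 (Ltb, minus) and chr5:61089642-61089701 (Pax5, minus). The Fcer2 probe spans chr12:2450343-2467898 on the plus strand, far more than its 60 bases, so it crosses at least 1 intron. Exon and UTR annotation for this build was not used here.
Cd79a: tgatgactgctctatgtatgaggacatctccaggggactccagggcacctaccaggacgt
Cd79b: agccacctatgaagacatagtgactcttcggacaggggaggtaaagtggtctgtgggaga
Ms4a1: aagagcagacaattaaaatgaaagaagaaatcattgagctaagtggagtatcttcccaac
Vpreb3: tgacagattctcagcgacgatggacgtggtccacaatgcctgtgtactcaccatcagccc
Ltb: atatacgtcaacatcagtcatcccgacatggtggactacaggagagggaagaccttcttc
Fcer2: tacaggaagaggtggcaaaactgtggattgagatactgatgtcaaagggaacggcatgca
Pax5: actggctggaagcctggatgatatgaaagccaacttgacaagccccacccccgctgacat

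Levels below are on the log2 scale, with the 75th percentile of each array set to 0, so a level of 0 equals that percentile and a difference of 1 is a factor of 2. The 2 arrays of a group correlated at r = 0.948 (n-6 colitis) to r = 0.971 (fish oil colitis) across 18165 genes, which are not independent replicates. Fish oil replicate 1 was the dimmest array, with 16402 probes well above background against 18146 to 21279 on the other 7, and its lowest level well above background was -4.70, against -6.77 to -5.43 on the others. Levels near or under those bounds have no order. Markers of colon epithelium were well above background on every array for 8 of 8 genes. All arrays lay on 1 slide, and slide row or column coincided with the groups in each of the 6 comparisons, so position and group cannot be told apart.

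Across the B cell and follicle genes, ALA colitis replicate 2 and n-6 colitis replicate 1 stood apart from the other 6 arrays, their own replicates included. They were the 2 brightest arrays for 20 of the 28 members tested (71.4%), against 1817 of 18165 genes tested (10.0%). The 20 include Cd22, Btk, Cr2, Mzb1 and Cd79a, which were tested through ALA colitis alone and so had to be bright there. With the 4 untested members it was 21 of 32, and all 21 were well above background on both arrays. ALA colitis replicate 2 was the brightest array for 16 members and n-6 colitis replicate 1 for 7. Among the 15 members well above background on all 8 arrays, the same pair was brightest for 10, and fish oil replicate 2 was the dimmest array for 8. Because this pair of arrays was singled out after the values were seen, the counts describe these arrays and carry no test. Each comparison that uses either array is given with both and without them.

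**Figure D1:**
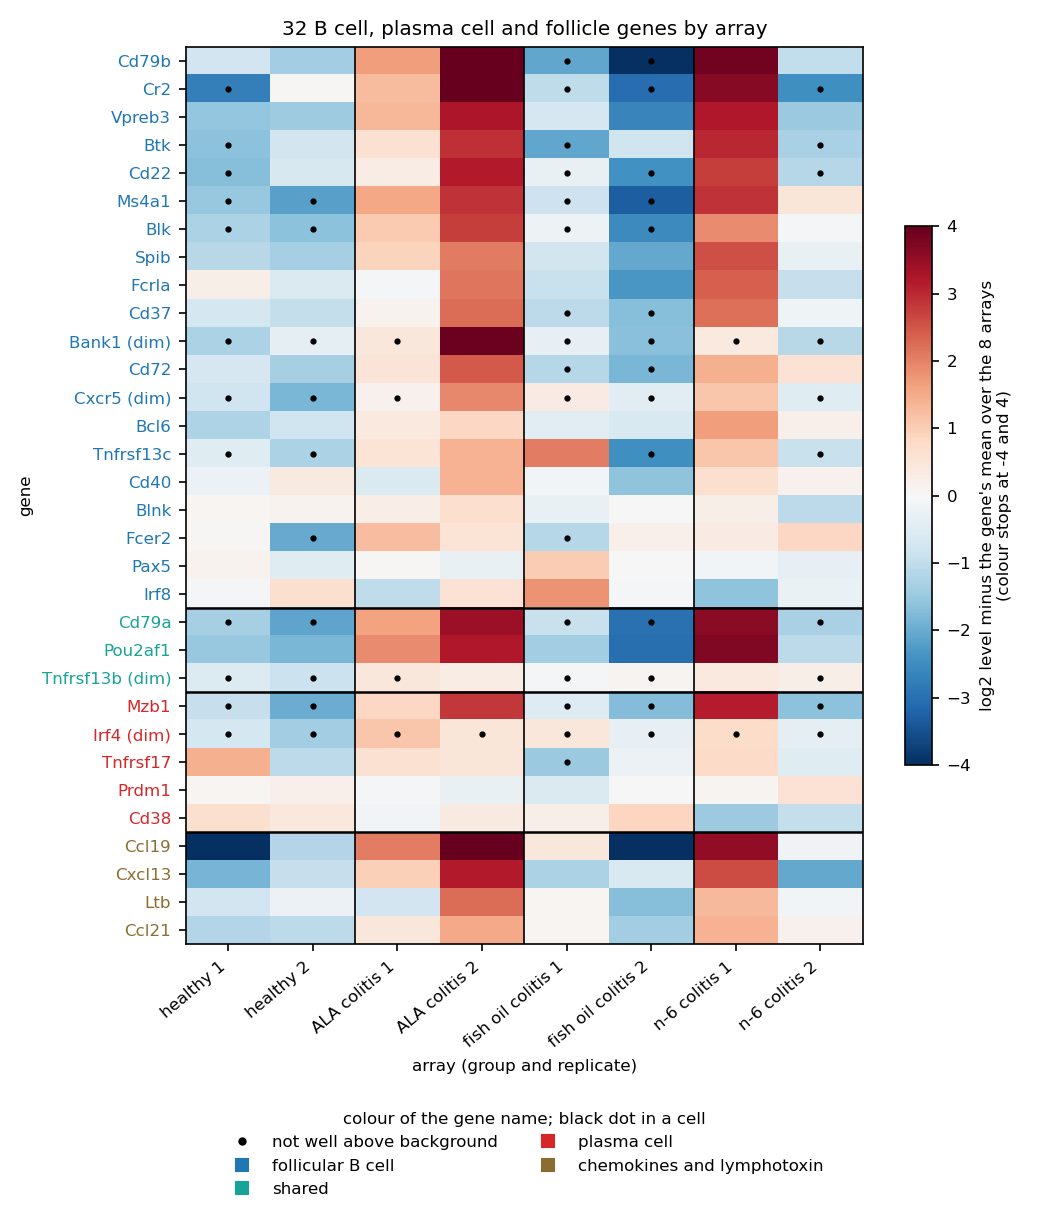
Level of each of the 32 genes on each of the 8 arrays, as the log2 level minus the gene's mean over the 8 arrays (colour, stopped at -4 and 4); gene names are coloured by list, a black dot marks a value not well above background, and "dim" marks the 4 genes that did not pass the filter. ALA colitis replicate 2 and n-6 colitis replicate 1 are the red columns for most follicular, shared and chemokine genes, and Prdm1, Cd38, Pax5 and Irf8 do not share that pattern.

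Follicular B cell and plasma cell genes differed in how they varied over the arrays. For each gene the mean over 8 arrays was subtracted, and the median over a list was taken on each array. For the 18 follicular genes tested this median was -0.73 and -0.87 on the healthy arrays, 0.53 and 2.19 on the ALA arrays, -0.71 and -1.94 on the fish oil arrays, and 2.05 and -0.30 on the n-6 arrays. It was thus above 0 on both ALA arrays and n-6 replicate 1, and below 0 on the other 5. Of the 32 members, 16 and 18 were well above background on the fish oil arrays and 20 and 22 on the healthy arrays. On the n-6 arrays it was 30 and 22, and on the ALA arrays 28 and 31. The low medians, and the spread between replicates given below, thus rest partly on levels that have no order. Cd22, Btk, Cr2 and Tnfrsf13c of this list were tested through ALA colitis alone. For the 4 plasma cell genes tested the same medians ran only from -0.73 (n-6 replicate 2) to 0.43 (n-6 replicate 1). The pooled SD between replicate arrays was 1.11 for the follicular and 0.52 for the plasma cell medians, so the wide range of the former lay partly within groups. The 2 arrays that stood apart were the brightest pair for 13 of the 18 follicular genes, 1 of the 4 plasma cell genes (Mzb1), 2 of 2 shared genes and 4 of 4 chemokine and lymphotoxin genes. These counts include Cd22, Btk, Cr2, Mzb1 and Cd79a, which were tested through ALA colitis alone and so had to be bright there. A list of 4 genes is small, and the difference between the lists was not tested. In a further list for antibody secretion, 4 of 9 genes had the same brightest pair (44.4%, against 10% of all genes).

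**Figure D2:**
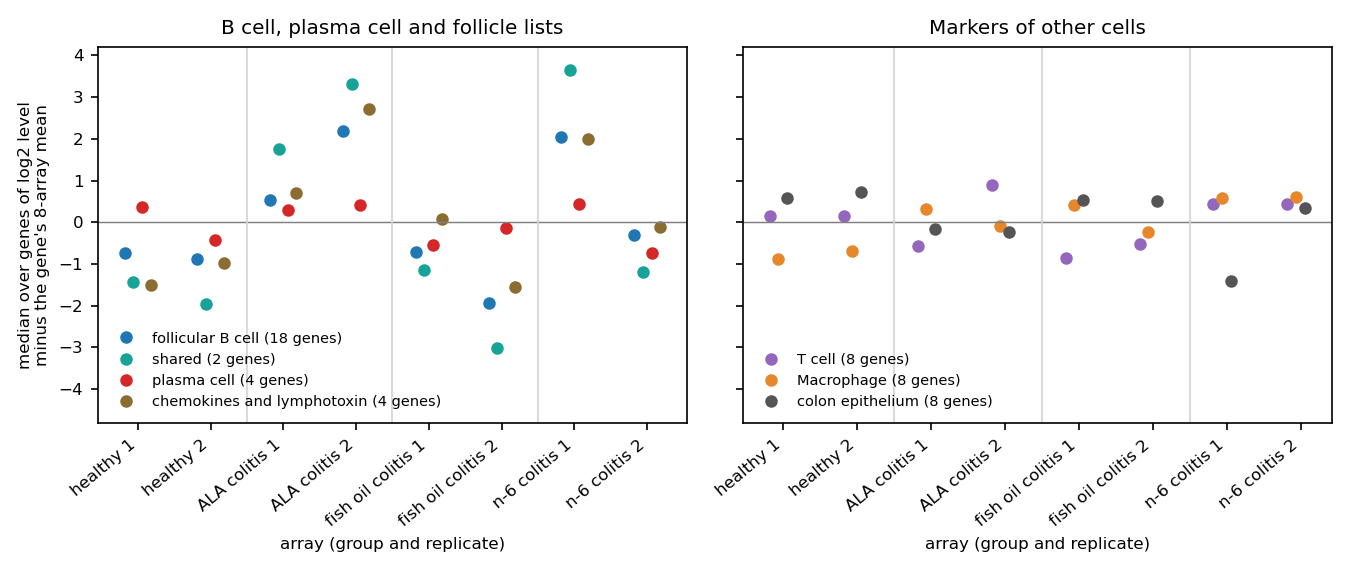
Median over the genes of a list of the log2 level minus each gene's mean over the 8 arrays, by array; left, the 4 lists of B cell, plasma cell and follicle genes, right, marker lists of T cells, macrophages and colon epithelium. The follicular list reaches 2.19 and 2.05 on ALA colitis replicate 2 and n-6 colitis replicate 1, while the plasma cell list stays between -0.73 and 0.43.

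Markers of other cells were followed on the same arrays. The T cell list (8 of 10 genes tested) had medians of 0.14 and 0.14 on the healthy arrays, -0.57 and 0.90 on the ALA arrays, -0.85 and -0.53 on the fish oil arrays, and 0.43 and 0.44 on the n-6 arrays. It was thus highest on ALA replicate 2 and lowest on fish oil replicate 1, over a smaller range than the follicular list. For 2 of those 8 genes, Cd3g and Cd5, the brightest pair of arrays was the same as for the B cell genes, as it was for 1 of 8 macrophage genes and 0 of 8 epithelial genes. The epithelial list was lowest on n-6 replicate 1, at -1.40, and lay between -0.24 and 0.73 on the other 7 arrays. The part of T cells or of lost epithelium in the levels of the B cell genes was not tested.

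Of the antigen receptor complex, Cd79b, the Ig-beta signal chain, had a wide range, though its low end was under background. Its level was -3.15 and -3.77 on the healthy arrays, -0.71 and 1.83 on the ALA arrays, -4.46 and -6.98 on the fish oil arrays, and 1.48 and -3.39 on the n-6 arrays. Both ALA arrays lay above both healthy arrays, and both fish oil arrays lay below them and were not well above background, while n-6 replicate 1 lay above both healthy arrays and n-6 replicate 2 lay between them. Its partner Cd79a, the Ig-alpha chain, measured -5.51 and -6.28 in healthy colon, -2.57 and -0.77 in ALA colitis, -5.08 and -7.17 in fish oil colitis, and -0.56 and -5.49 in n-6 colitis. Only the 2 ALA arrays and n-6 replicate 1 were well above background for Cd79a.

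Vpreb3, a small protein of the endoplasmic reticulum that binds newly made receptor chains, was well above background on all 8 arrays. Its levels were -3.60 and -3.50 (healthy), -0.72 and 1.18 (ALA), -2.73 and -4.71 (fish oil), and 1.13 and -3.55 (n-6). The n-6 arrays differed by more than 4 units, with replicate 2 inside the healthy range. Blk, a Src-family kinase of the receptor, measured -5.91 and -6.28 in healthy colon, -3.60 and -1.89 in ALA colitis, -4.85 and -7.18 in fish oil colitis, and -2.75 and -4.71 in n-6 colitis. Here both n-6 arrays lay above both healthy arrays, and only the ALA and n-6 arrays were well above background.

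The kinase Btk and the adaptor Blnk completed the tested part of the pathway. Btk was highest on n-6 replicate 1, at -0.67, with ALA replicate 2 at -0.75 close behind, and was not well above background on 3 arrays. Blnk, which links the receptor's kinases to calcium signalling, stayed within 1.71 units, from -1.22 on n-6 replicate 2 to 0.50 on ALA replicate 2. Bank1, a scaffold of the same pathway, was well above background on 1 array only, ALA replicate 2.

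Among the surface receptors, Ms4a1, the CD20 antigen, measured -5.33 and -5.98 on the healthy arrays, -2.25 and -0.90 on the ALA arrays, -4.62 and -7.10 on the fish oil arrays, and -0.92 and -3.32 on the n-6 arrays. All 4 ALA and n-6 arrays lay above all 4 healthy and fish oil arrays, and only those 4 were well above background. Cd72, an inhibitory lectin, measured -4.21 and -4.86 (healthy), -3.02 and -1.09 (ALA), -4.67 and -5.36 (fish oil), and -2.11 and -2.94 (n-6). Its ALA and n-6 arrays likewise lay above all healthy and fish oil arrays. Cd37, a tetraspanin of mature B cells, measured -4.06 and -4.31 in healthy colon, -3.20 and -1.11 in ALA colitis, -4.41 and -5.07 in fish oil colitis, and -1.14 and -3.51 in n-6 colitis. The same split held, and both fish oil arrays lay below both healthy arrays without being well above background.

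Fcer2, the low-affinity receptor for immunoglobulin E, did not share the bright pair of arrays. Its levels were -3.57 and -5.63 (healthy), -2.38 and -3.06 (ALA), -4.75 and -3.39 (fish oil), and -3.28 and -2.78 (n-6). All ALA and n-6 arrays lay above both healthy arrays, the nearest by less than the gap between replicates. Cr2, the complement receptor of B cells and follicular dendritic cells, was highest on ALA replicate 2, at 0.15, with n-6 replicate 1 second at -0.48, and was not well above background on 4 arrays. Cd22, an inhibitory receptor, was highest on ALA replicate 2, at -1.56, and also not well above background on 4 arrays. Fcrla, an intracellular Fc receptor-like protein of germinal-centre B cells, ran from -2.58 (fish oil replicate 2) to 2.13 (n-6 replicate 1), and its second probe had the same 2 brightest arrays. Cd40, the receptor for T cell help, ran from -1.15 (fish oil replicate 2) to 1.86 (ALA replicate 2) and was well above background throughout.

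Cd38, an NAD-consuming enzyme of the cell surface that was listed here with plasma cells and is also found on other leukocytes, went another way. It measured -0.06 and -0.29 on the healthy arrays, -0.81 and -0.36 on the ALA arrays, -0.48 and 0.14 on the fish oil arrays, and -2.16 and -1.68 on the n-6 arrays. Both n-6 arrays lay below the other 6.

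Of the transcription factors, Pou2af1, the B cell coactivator of octamer-binding factors, had the widest range, 6.73 units. Its brightest probe measured 0.46 and 0.13 (healthy), 3.85 and 5.18 (ALA), 0.56 and -1.06 (fish oil), and 5.67 and 0.93 (n-6). Both ALA arrays and n-6 replicate 1 lay far above the other 5, and the other 2 probes for Pou2af1, dimmer throughout, had the same 2 brightest arrays. Spib, an Ets factor of mature B cells and plasmacytoid dendritic cells, measured 0 and -0.24 in healthy colon, 2.0 and 3.18 in ALA colitis, 0.36 and -0.95 in fish oil colitis, and 3.67 and 0.81 in n-6 colitis. For Spib the lower n-6 array was still above both healthy arrays.

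Bcl6, the repressor that defines germinal-centre B cells, measured 1.48 and 1.92 in healthy colon, 3.09 and 3.53 in ALA colitis, 2.24 and 2.09 in fish oil colitis, and 4.39 and 2.90 in n-6 colitis. All 6 colitis arrays lay above both healthy arrays, with the ALA and n-6 arrays above the fish oil arrays. Pax5, the factor that holds B cell identity, stayed between -0.87 (healthy replicate 2) and 0.65 (fish oil replicate 1). Irf8, which B cells share with macrophages and dendritic cells, ran from -3.17 on n-6 replicate 1 to 0.24 on fish oil replicate 1. Neither Pax5 nor Irf8 shared the pattern of the other B cell factors. Prdm1, the repressor that drives plasma cell differentiation, varied least of the 28 tested members by its brighter probe. That probe ran from -1.61 (fish oil replicate 1) to -0.47 (n-6 replicate 2). The second, dimmer probe of Prdm1 gave another order, with healthy levels of -4.16 and -4.42 below all 6 colitis levels (-4.05 to -2.82). Fish oil replicate 1 was not well above background for that second probe. Irf4 was not well above background on any of the 8 arrays.

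Octamer sites were looked for because Pou2af1, which works at them, ranged so widely with other members. The letters ATGCAAAT were searched on both strands, where the other strand reads ATTTGCAT, in the 250 bases before the RefSeq start of each gene (GRCr8). A window was found for 22 of the 32 members, and 2 of the 22 held the octamer (9.091%), against 523 of 33469 windows of all genes (1.56%). The 2 were Vpreb3, 48 bases before its start, and Blnk, 181 bases before its start. The 60 bases around each match are printed below in the gene's own direction, with the octamer in capitals, at chr20:12718249-12718308 (Vpreb3) and chr1:249770689-249770748 (Blnk), both on the minus strand. Vpreb3 ranged over 5.89 units across the arrays and Blnk over 1.71, so the 2 genes with a match did not vary alike. A match is a string of letters and not a measured binding site.
Vpreb3: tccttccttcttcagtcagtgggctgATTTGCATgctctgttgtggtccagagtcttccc
Blnk: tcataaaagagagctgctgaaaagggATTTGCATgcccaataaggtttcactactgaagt

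The 3 receptors for the B cell survival factors BAFF and APRIL did not form 1 pattern. Tnfrsf13c, the BAFF receptor of resting B cells, was highest on fish oil replicate 1, at -2.70, and was not well above background on fish oil replicate 2, n-6 replicate 2 or either healthy array. Tnfrsf17 (BCMA), which supports long-lived plasma cells, was highest on healthy replicate 1, at -0.51, and was not well above background on fish oil replicate 1. Tnfrsf13b (TACI) was well above background only on ALA replicate 2 and n-6 replicate 1. Mzb1, a helper of immunoglobulin assembly in the endoplasmic reticulum, was the 1 of the 4 tested plasma cell members that followed the follicular genes. It was highest on n-6 replicate 1, at -1.74, and ALA replicate 2, at -2.05, and was well above background on 3 arrays. Mzb1 was tested through ALA colitis alone, so it had to be bright in that group.

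Of the chemokines, Ccl19 measured -2.01 and 0.99 on the healthy arrays, 4.19 and 6.25 on the ALA arrays, 2.61 and -2.48 on the fish oil arrays, and 5.69 and 2.03 on the n-6 arrays. The fish oil arrays differed by more than 5 units and enclosed both healthy arrays. Ccl21, the other ligand of Ccr7, measured 1.54 and 1.66 (healthy), 3.14 and 4.21 (ALA), 2.77 and 1.31 (fish oil), and 4.08 and 2.88 (n-6). All ALA and n-6 arrays lay above the 4 others for Ccl21.

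Cxcl13, which draws B cells into follicles through Cxcr5, measured -2.24 and -1.31 in healthy colon, 0.58 and 2.79 in ALA colitis, -1.65 and -1.0 in fish oil colitis, and 2.23 and -2.42 in n-6 colitis. The n-6 arrays thus held the second highest and the lowest of the 8 levels. Its receptor Cxcr5 was well above background only on ALA replicate 2 and n-6 replicate 1. Ltb, the membrane-anchored lymphotoxin subunit that keeps follicles organised, measured 0.84 and 1.37 (healthy), 0.84 and 3.85 (ALA), 1.67 and -0.10 (fish oil), and 2.89 and 1.5 (n-6). Apart from ALA replicate 2 and n-6 replicate 1, the Ltb levels ran from -0.10 to 1.67.

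Group comparisons were made with limma across all 18165 genes and adjusted by the Benjamini-Hochberg method, and 0 of the 28 tested members passed an adjusted p of 0.05 in any of the 6 comparisons. The background for that call was 0.0385% of genes for n-6 colitis against healthy, 0.0275% for ALA against n-6 colitis, 0.0385% for fish oil against n-6 colitis, and 0% for ALA colitis against healthy, for fish oil colitis against healthy and for ALA against fish oil colitis. The comparisons share groups, so their values are set side by side and were not combined. Differences are first minus second group, with limma's standard error (SE). A dim gene has only a bound where no array of a group was well above background. For such a gene the dim group's mean was taken after raising each array to its lowest level well above background, where the gene lay under it.

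In n-6 colitis against healthy colon, 23 of the 28 members were higher and 5 lower. The smallest adjusted p was 0.147, for Cd38, which was lower in n-6 colitis by a difference of -1.75 ± 0.36. Bcl6 was higher by 1.94 ± 0.51 (adjusted p = 0.198), Cd72 by 2.01 ± 0.67 (0.262), Ccl21 by 1.88 ± 0.64 (0.270) and Spib by 2.36 ± 0.94 (0.321). Ms4a1 was 11.6-fold higher as measured (means -2.12 and -5.65, adjusted p = 0.222), which also did not pass. Neither healthy array was well above background for it, so the fold is uncertain. That fold takes in n-6 replicate 1, without which the measured difference fell from 3.53 to 2.34. By unadjusted p under 0.05, 7 of 28 members (25.0%) were called, 6 higher and 1 lower, against 14.3% of all genes. Both n-6 arrays lay above both healthy arrays for 12 members (42.9%; 23.8% of all genes), and below them for 2, Cd38 and Irf8 (7.14%; 21.7% of all genes). Among the 12 was Cd79a, for which n-6 replicate 2 (-5.49) and healthy replicate 1 (-5.51) were not well above background and have no order. The median difference was 1.94 over the follicular genes and 0.076 over the plasma cell genes, beside 0.026 over all genes. Without n-6 replicate 1 and ALA replicate 2 the follicular median was 0.063 and the plasma cell median -0.44, and 17 of 28 members were higher.

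In ALA colitis against healthy colon, 25 of 28 members were higher, with a smallest adjusted p of 0.684 (Ms4a1 and Cd72). As measured, Ms4a1 was 16.9-fold higher (means -1.58 and -5.65) and Cd79a 18.7-fold higher (means -1.67 and -5.90, adjusted p = 0.731). Neither healthy array was well above background for either gene, so both folds are uncertain. Cd79a was tested through ALA colitis alone, so it had to be bright there. Both folds take in ALA replicate 2. Without it the measured differences fell from 4.08 to 3.4 (Ms4a1) and from 4.23 to 3.32 (Cd79a). Pou2af1 was higher by 4.22 ± 1.41, Ccl19 by 5.73 ± 1.95, Vpreb3 by 3.77 ± 1.47 and Cxcl13 by 3.46 ± 1.43, none past the adjusted threshold (adjusted p from 0.731 to 0.760). By unadjusted p 13 members (46.4%) were called, all higher, against 6.53% of all genes. Both ALA arrays lay above both healthy arrays for 20 members (71.4%; 22.5% of all genes) and below them for 2, Cd38 and Prdm1 (7.14%; 18.1% of all genes). Without the 6 members that were tested through ALA colitis alone, and so had to be bright there, these counts were 14 and 2 of 22, with 12 called by unadjusted p and a follicular median of 1.95. Prdm1 lay below by its brighter probe only, and by its second probe both ALA arrays lay above both healthy arrays. The median difference was 2.26 over the follicular genes and 0.025 over the plasma cell genes, beside 0.038 over all genes. Without ALA replicate 2 and n-6 replicate 1 the follicular median was 1.5 and 23 of 28 members were higher. Vpreb3 was then higher by 2.82, Pou2af1 by 3.56 and Spib by 2.12, and Ltb was lower, at -0.27.

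In fish oil colitis against healthy colon, the members were spread about 0, with 11 higher and 17 lower and a smallest adjusted p of 0.994. For Ms4a1, Blk, Mzb1 and Cd79a no array of either group was well above background, so their direction has no meaning. Over the 18 members that both groups showed well above background on 1 array or more, the median difference was -0.17. By unadjusted p 0 members were called, against 3.9% of all genes. Both fish oil arrays lay above both healthy arrays for Bcl6 alone (3.57%; 18.3% of all genes), by 0.46 ± 0.51, and below them for 5 members (17.9%; 20.5% of all genes). Those 5 were Cd79b, Prdm1, Fcrla, Cd37 and Blnk, and Cd79b was 3.39-fold lower by floored fold (means -5.72 and -3.46). For Cd79b and Cd37 neither fish oil array was well above background. Prdm1 lay below by its brighter probe only. By its second probe both fish oil arrays lay above both healthy arrays, though fish oil replicate 1 was not well above background there. The median difference was -0.19 over the follicular genes and -0.21 over the plasma cell genes.

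In ALA against n-6 colitis, 25 of 28 members were higher with ALA. Among them were all 6 members tested through ALA colitis alone, which had to be bright there. The smallest adjusted p was 0.839. That was Cd38, higher by 1.34 ± 0.36, and it was the 1 member called by unadjusted p (3.57%; 5.8% of all genes). Both ALA arrays lay above both n-6 arrays for Cd38 and Blnk (7.14%; 16.9% of all genes), and below them for Prdm1 (3.57%; 13.1% of all genes). Prdm1 lay below by its brighter probe only, and for its second probe the arrays of the 2 groups overlapped. The shares were below those of all genes. The median was 0.63 over the follicular genes (replicate SD 1.11) and 0.75 over the plasma cell genes (replicate SD 0.52). Without the 6 members tested through ALA colitis alone, the follicular median was 0.41 over 14 genes. Each group holds 1 of the 2 bright arrays. Without them the follicular median was 1.09 and 23 members were higher, with Pou2af1 at 2.92 and Cxcl13 at 3.0 (adjusted p = 0.593 and 0.585), each from 1 array a group.

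In fish oil against n-6 colitis, 24 of 28 members were lower and 4 higher. The smallest adjusted p, 0.410, was shared by 8 genes, among them Cd38, higher with fish oil by 1.75 ± 0.36. By floored fold Cd79b was 19.2-fold lower with fish oil (means -5.72 and -0.96) and Ms4a1 9.09-fold lower (means -5.86 and -2.12). Cd72 was 5.62-fold lower as measured (means -5.01 and -2.52), with neither fish oil array well above background. These folds take in n-6 replicate 1. Without it the measured differences were -2.32 (Cd79b, from -4.76), -2.54 (Ms4a1, from -3.74) and -2.08 (Cd72, from -2.49). Bcl6 was lower, with a difference of -1.48 ± 0.51, and likewise Spib (-2.54 ± 0.94) and Pou2af1 (-3.55 ± 1.41), none past the adjusted threshold. By unadjusted p 8 members (28.6%) were called, 7 of them lower, against 12% of all genes. Both fish oil arrays lay below both n-6 arrays for 12 members (42.9%; 23.6% of all genes) and above them for 3, Cd38, Irf8 and Pax5 (10.7%; 23% of all genes). The median difference was -2.29 over the follicular genes and -0.82 over the plasma cell genes, beside 0.0084 over all genes. Without n-6 replicate 1 and ALA replicate 2 these were -0.71 and 0.078.

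In ALA against fish oil colitis, 25 of 28 members were higher with ALA, with a smallest adjusted p of 0.476. By floored fold Cd79b was 55.1-fold higher (means 0.56 and -5.72) and Ms4a1 13.3-fold higher (means -1.58 and -5.86). Cd79a was 12.8-fold higher by floored fold (means -1.67 and -6.12). Each measured difference had an adjusted p of 0.476 (limma). Cd79a was tested through ALA colitis alone, so it had to be bright there. The 3 folds take in ALA replicate 2. Without it the measured differences were 5.01 (Cd79b, from 6.28), 3.61 (Ms4a1, from 4.28) and 3.55 (Cd79a, from 4.45). Pou2af1 was higher by 4.76 ± 1.41, Spib by 2.89 ± 0.94 and Vpreb3 by 3.94 ± 1.47. By unadjusted p 11 members (39.3%) were called, all higher, against 9.6% of all genes. Both ALA arrays lay above both fish oil arrays for 21 members (75%; 25.3% of all genes) and below them for 0 (20.4% of all genes). Without the 6 members tested through ALA colitis alone, it was 16 of 22, with 10 called by unadjusted p and a follicular median of 2.62. The median difference was 2.77 over the follicular genes and 0.77 over the plasma cell genes, beside 0.014 over all genes. Over the 11 follicular genes that both groups showed well above background on 1 array or more, the median was 1.28. Without the 2 bright arrays the follicular median was 1.68, 25 members were still higher, and Pou2af1 was higher by 4.10, Spib by 2.29 and Vpreb3 by 3.0 (adjusted p from 0.359 to 0.382).

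**Figure D3:**
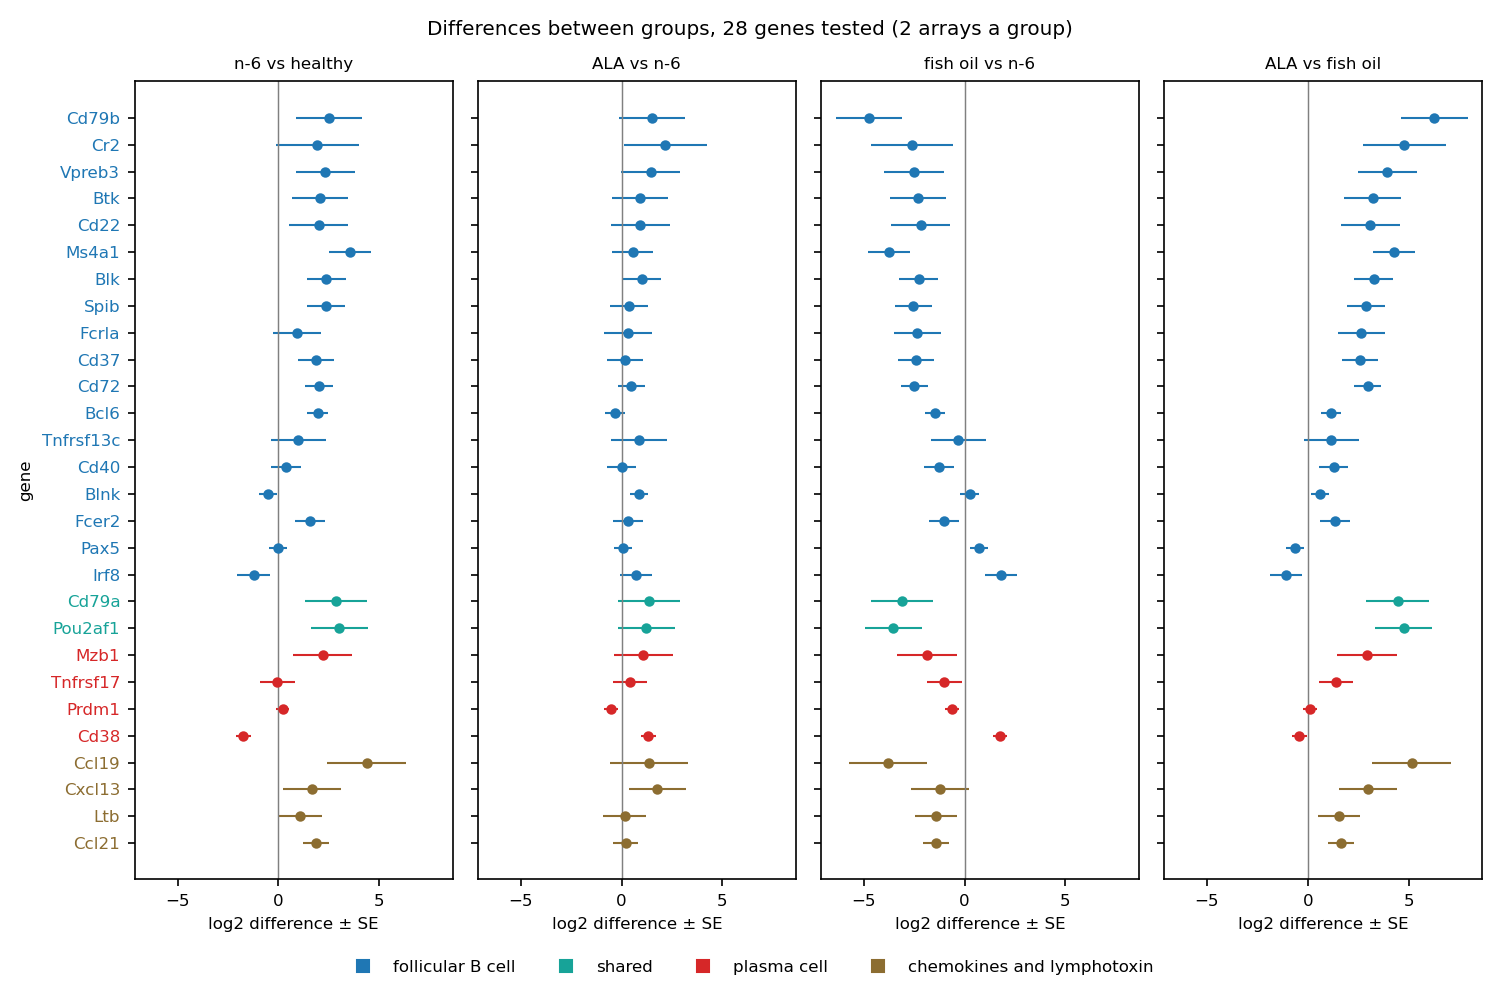
Difference between groups (first minus second, log2) for the 28 genes tested, in 4 of the 6 comparisons, with bars for limma's SE; gene names are coloured by list. Follicular genes lie mostly above 0 for n-6 against healthy and ALA against fish oil and below 0 for fish oil against n-6, where 0 of 28 genes passed an adjusted p of 0.05.

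How far single arrays and the treatment of background set the list medians differed by comparison. For n-6 colitis against healthy, the follicular median was 0.063 without n-6 replicate 1 and 2.87 without n-6 replicate 2. Leaving out n-6 replicate 1 gave 1.76 for ALA against n-6 colitis, leaving out n-6 replicate 2 gave -0.76, and leaving out ALA replicate 2 gave -0.10, so its sign depended on which array was kept. For ALA colitis against healthy it stayed between 1.5 and 3.19 with any 1 array left out, and for ALA against fish oil between 1.68 and 3.69. For fish oil colitis against healthy it ran from -0.98 (without fish oil replicate 1) to 0.41 (without fish oil replicate 2). The follicular medians of these comparisons were smaller under normexp background correction, at 1.08 for ALA against healthy, 0.66 for ALA against fish oil and 0.92 for n-6 against healthy, and fish oil against healthy turned to 0.50. Over the 8 follicular genes well above background on all arrays they were 0.80, 1.21, 0.64 and -0.17. The plasma cell median changed sign in 5 of the 6 comparisons when 1 array was left out. Where a group was left with 1 array, that array was assumed to vary like the other groups.

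**Figure D4:**
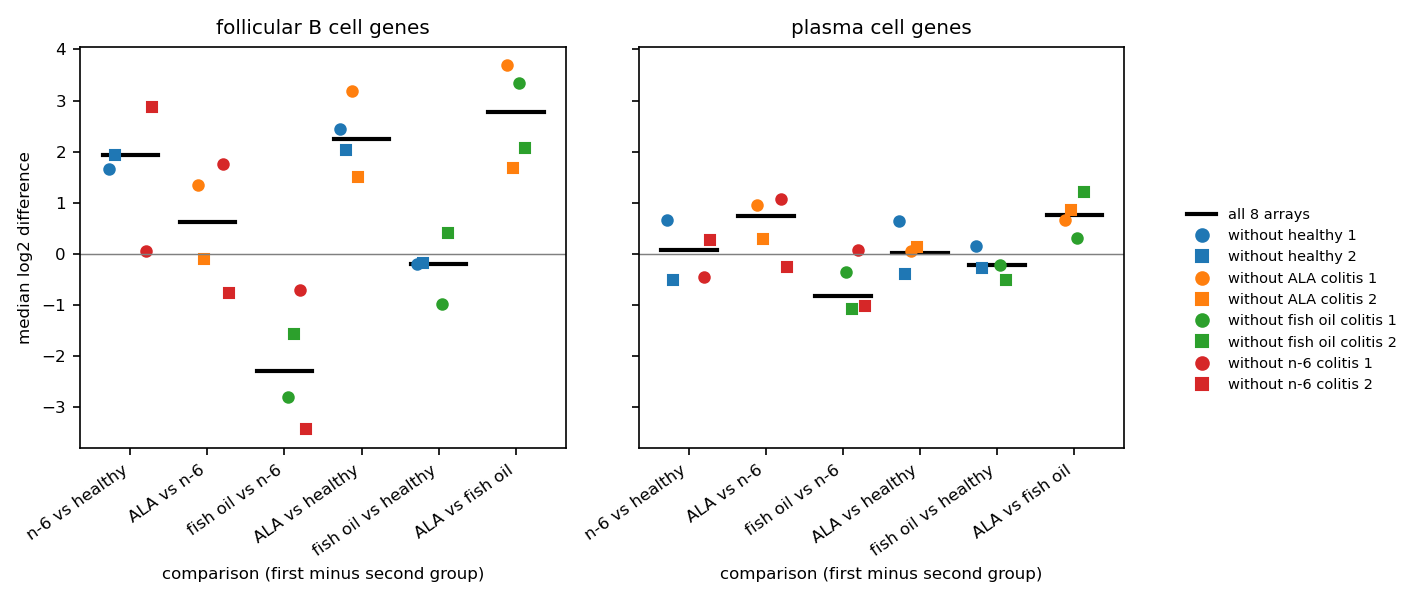
Median log2 difference over the 18 follicular genes (left) and the 4 plasma cell genes (right) in each comparison, with all 8 arrays (black bar) and with 1 array of the compared groups left out (circles, replicate 1; squares, replicate 2; colour, the group that lost an array). Without n-6 colitis replicate 1 the follicular median for n-6 against healthy is 0.063, while the median for ALA against healthy stays between 1.5 and 3.19.

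Other genes of the same pathways were taken from lists set by known function. Of 17 B cell signalling genes tested, 12 had ALA replicate 2 and n-6 replicate 1 as their brightest arrays (70.6%). In this list 0 genes passed an adjusted p of 0.05 in each comparison; the smallest adjusted p was 0.101, for Fcgr2b, an inhibitory Fc receptor that macrophages share, higher in n-6 colitis than in healthy colon by 3.21 ± 0.47. Of 6 B cell transcription factors tested, 3 had that brightest pair, namely Ebf1, Tcf3 and Mef2c.

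Of 16 genes listed for antibody secretion, 9 were on the array and tested. Of these, Xbp1, Sdc1, Ell2, Edem1 and Pigr did not have the brightest pair, and Derl3, Fkbp11, Creld2 and Sec11c did (44.4%, against 10% of all genes). Pigr, the epithelial transporter of immunoglobulin A, ranged from 5.13 on n-6 replicate 1 to 8.29 on fish oil replicate 1. The median difference of this list lay between -0.61 (fish oil against n-6 colitis) and 0.38 (ALA against fish oil colitis), and 0 of its genes passed in any comparison.

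Of 8 further follicle and lymphoid organ genes, Ccr6, Lta and Madcam1 had the same brightest pair. Madcam1, the vessel adhesion molecule through which lymphocytes enter gut lymphoid tissue, measured -1.74 and -1.42 (healthy), 0.41 and 0.92 (ALA), -2.76 and -1.67 (fish oil), and 1.11 and -0.69 (n-6). All 4 ALA and n-6 arrays lay above the other 4. It differed by 2.88 ± 0.64 between ALA and fish oil colitis, with an adjusted p of 0.476. Of 6 gut homing genes, Ccr10, the receptor of antibody-secreting cells for Ccl28, and Itga4 had the brightest pair, and 0 of the 6 passed in any comparison.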

How the data were processed

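Colon RNA was hybridised to 8 single-colour (Cy3) Agilent rat arrays, 2 in each of 4 groups. The deposited scanner files hold spot intensity from Agilent Feature Extraction 11.5.1.1 on build rn4, with the background already subtracted and no scaling across arrays, per the file headers. Log2 values in the authors' deposited table, made from probes in a way not stated, served as an alternative. Control and outlier spots were left out, spots of a probe were averaged, and log2 intensity was set relative to the 75th percentile of each array. A gene was represented by its brightest probe on average. limma 3.58.1 in R 4.3.3 fitted all 8 arrays together (4 residual and 3.02 prior degrees of freedom), without a replicate block. The script was tested on simulated data. Values on every array are given for tested members with an unadjusted p under 0.05 in any comparison and for the 6 brightest, and the others by range. The number of arrays limits the precision. The members, lists and comparisons were chosen with earlier results of these data known, and leaving out 2 arrays together was chosen after seeing the data. RefSeq (GRCr8) supplied names and promoter windows.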

Additional observations from a re-analysis of the deposited data

Results flagged for a closer look

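For 3 genes, the arrays of 2 colitis groups lay on opposite sides of both healthy arrays; these differences were tested directly between the colitis groups, and 0 passed. Cd79b was above both healthy arrays in ALA colitis and below both in fish oil colitis. Its difference between the 2 groups was 6.28 (limma, adjusted p = 0.476). No fish oil array was well above background for Cd79b, so that size is uncertain, and the floored fold was 55.1. Cd37 was above both healthy arrays in ALA and in n-6 colitis and below both in fish oil colitis, with differences of 2.58 (ALA minus fish oil, adjusted p = 0.476) and -2.41 (fish oil minus n-6, adjusted p = 0.410). The fish oil arrays were again not well above background, so these sizes are uncertain. No Cd37 level was raised. The measured fold was 5.33 between n-6 and fish oil colitis and slightly more between ALA and fish oil colitis. The folds for Cd79b and Cd37 take in ALA replicate 2 or n-6 replicate 1, without which they would be smaller. Blnk was above both healthy arrays in ALA colitis and below both in fish oil colitis by levels that lay close together, with a difference of 0.62 (adjusted p = 0.635).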

How the results depend on the processing

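Under every alternative run, including the replicate block, 0 members passed an adjusted p of 0.05 in any comparison; the smallest over all alternatives was 0.0528, in n-6 colitis against healthy (0.147 as reported). Of 3114 member differences recomputed, 139 changed sign, 90 of them when 1 array was left out. Many of the 3114 could not change, as with the replicate block or when the array left out belonged to neither group compared. The share that changed sign therefore understates how far signs depended on single arrays and processing. Normexp background correction gave a plasma cell median of 0.12 for ALA against n-6 colitis, and -0.58 (follicular) and -0.21 (plasma cell) for fish oil against n-6; it moved the median of all genes by up to 0.236. It also lowered the follicular medians to 1.08 (ALA against healthy), 0.66 (ALA against fish oil) and 0.92 (n-6 against healthy), and turned that of fish oil against healthy from -0.19 to 0.50. With only genes well above background on all arrays, n-6 against healthy gave 0.64 (follicular) and -0.77 (plasma cell), fish oil against n-6 gave 0.56 for the plasma cell genes, and the follicular median was 0.80 for ALA against healthy and 1.21 for ALA against fish oil. Without ALA replicate 2 and n-6 replicate 1 together, the values were 0.063 (follicular, n-6 against healthy), -0.71 (follicular, fish oil against n-6) and 0.078 (plasma cell, fish oil against n-6). With 1 array left out, the follicular median ran from 0.063 to 2.87 (n-6 against healthy), -0.76 to 1.76 (ALA against n-6) and -3.43 to -0.71 (fish oil against n-6), and the plasma cell median from -0.51 to 0.66, -0.25 to 1.07 and -1.08 to 0.078. Where dim genes drop out, fewer genes are tested; otherwise the cause was not tested. Replicate numbers are not stated to pair arrays, and deviations of same-numbered arrays correlated at -0.168 to 0.470, so the block is an alternative only. With 1 array of each number in every group, the block cannot change a group difference, only its error. The follicular median for n-6 against healthy was therefore again 1.94, with a smallest adjusted p of 0.140.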
